A study of Drosophila melanogaster with 10 samples.

Results

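Neuroblasts sorted from pupal fly brains in which the Mediator subunit MED27 was knocked down by RNA interference were compared with wild-type pupal neuroblasts, gene by gene. Of the 14210 genes with an expression value in the series, the 7050 whose mean was at least 1 FPKM (fragments counted on a gene, scaled to transcript length and to sequencing depth) over the 4 pupal replicates were tested. The series measured polyadenylated RNA by sequencing in 3 groups of Drosophila melanogaster neuroblasts, with 2 replicates per group, and asked how the steroid hormone ecdysone and Mediator act on neuroblast metabolism when proliferation ends. Each pupal replicate was sequenced in 2 technical runs, which were averaged.

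All flies carried a membrane-bound GFP (UAS-CD8::GFP) driven by inscuteable-Gal4, a driver active in neuroblasts. The RNAi flies also carried a hairpin against MED27 from the Vienna collection (VDRC line TID 106703), while the wild-type flies carried an empty landing site (VIE-260B, TID 60100). Eggs were laid over 24 h and the animals kept at 29 °C for 6 days, until they were pupae at 0 to 2 h. A larval wild-type group, kept for 5 days until late in the third larval instar, lent its replicates to the estimate of the spread and is quoted for reference. Central brain cells were sorted for large size and high GFP. The hairpin was driven in every cell in which the driver was active, and a single hairpin was used.

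Neuroblasts are the neural stem cells of the fly: they divide asymmetrically, keeping one daughter as a neuroblast and giving the other to differentiation. Mediator is a large complex that bridges transcription factors and RNA polymerase II, and MED27 is a subunit of its core. In the pupa, neuroblasts shrink and stop dividing after a pulse of ecdysone, and oxidative phosphorylation, the mitochondrial production of ATP by electron transport, is a pathway linked to that step.

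Technical runs of a pupal replicate differed by an SD of 0.0852 to 0.102 log2 units over the tested genes. The 2 wild-type replicates differed from each other by an SD of 0.293 and the 2 RNAi replicates by 0.222, whereas replicates of different groups differed by 0.438 to 0.535. The deposited values sum to 676000 to 709700 FPKM per pupal run, and 6935 to 7087 genes reach 1 FPKM in a run. Nothing in the labels says that the replicates came from separate crosses, so p-values measure the spread between these samples. In RNA from sorted cells, fewer cells of a type and less RNA per cell cannot be told apart.

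Neuroblast markers were abundant in both groups, with 0 of 7 higher and 2 lower in RNAi (5 lower with quantile normalization, and 1 with any 1 pupal replicate left out). Their summed level, over dpn, ase, mira, wor, insc, grh and klu, was 1701 and 1683 FPKM in the wild-type replicates and 1530 and 1495 FPKM in the RNAi replicates. The sum of 9 neuronal markers was 79 and 157 FPKM in the wild-type replicates and 78.2 and 79.7 FPKM in the RNAi replicates, so wild-type replicate 2 stood apart. Among them, elav, a neuronal RNA-binding protein, read 39.5 and 61.8 FPKM in wild-type and 36.7 and 43.1 FPKM in RNAi replicates. Its relative fne read 29.5 and 73.3 FPKM and 30.8 and 27.6 FPKM. Of the 7 neuronal markers tested 0 passed, and 3 were lower without wild-type replicate 1. The 8 glial markers summed to 205 and 209.9 FPKM in wild-type and 171 and 173 FPKM in RNAi replicates, and 4 of them, repo, moody, Gs2 and wrapper, had a mean under 1 FPKM. Repo, the transcription factor that defines glia (repo), read at most 0.834 FPKM in a pupal replicate. Muscle markers summed to at most 1.19 FPKM and fat body markers to at most 2.16 FPKM per pupal replicate. The haemocyte markers summed to 28.8 and 28.9 FPKM in wild-type and 20.5 and 19.5 FPKM in RNAi replicates, of which crq, a scavenger receptor, made up 27.9 and 27.7 FPKM and 19.9 and 18.9 FPKM. The haemocyte gene Hml read at most 0.0191 FPKM. The level of crq was lower in RNAi (log2 fold change -0.50, limma adjusted p = 0.0121), with an adjusted p of 0.0594 without wild-type replicate 2, 0.0515 without RNAi replicate 1 and 0.0854 without RNAi replicate 2. Optic lobe markers summed to 171 and 185 FPKM in wild-type and 114 and 132 FPKM in RNAi replicates, with 1 of 7 tested higher and 2 lower. The 6 markers of intermediate progenitors, the dividing daughters of some neuroblasts, summed to 34.9 and 39.5 FPKM in wild-type and 30.1 and 31.5 FPKM in RNAi replicates, with 1 lower. The marker counts stand beside 19.6% higher and 8.58% lower over all tested genes. The part of these marker differences in the results below was not tested.

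MED27 itself was lower in both RNAi replicates. MED27 (FBgn0037359, chromosome 3R, positions 1480867 to 1482058) read 31.5 and 27.4 FPKM in the wild-type replicates and 5.33 and 3.99 FPKM in the RNAi replicates, against 31.7 and 38.4 FPKM in the larval ones. The log2 fold change of RNAi over wild-type, here and throughout on the scale of log2(FPKM + 1), was -2.43 ± 0.15 (SE) (limma adjusted p = 0.000522), and it passed with any 1 pupal replicate left out (adjusted p at most 0.00474). The 2 groups did not overlap, and MED27 RNA was still detected in both RNAi replicates. In what follows a value in brackets is a log2 fold change of RNAi over wild-type with the limma adjusted p, and where a gene has 2 pairs of FPKM values, wild-type replicates 1 and 2 come before RNAi replicates 1 and 2.

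Some genes near MED27 on the chromosome changed as well, of which CG31549 and CG31548 are named with their values seen. CG12171, CG31549 and CG31548, a cluster of genes coding for enzymes of the short-chain dehydrogenase family, were lower in RNAi: CG12171 read 22.1 and 14.4 FPKM in wild-type replicates and 4.41 and 2.49 FPKM in RNAi replicates (-2.12 ± 0.26 (SE), adjusted p = 0.00225). CG31549 read 18.8 and 29.4 FPKM and 9.76 and 5.56 FPKM in the same order (-1.55, adjusted p = 0.00638). Both passed with any 1 pupal replicate left out. CG31548 read 37.2 and 36.2 FPKM and 25.6 and 15.8 FPKM (-0.83, adjusted p = 0.0213) and had an adjusted p of 0.0751 without wild-type replicate 1, 0.0831 without wild-type replicate 2 and 0.068 without RNAi replicate 2. The adjacent gene elm rose from 33.1 and 32.2 FPKM to 59.8 and 60.6 FPKM (0.86, adjusted p = 0.000948) and CG1109 by 0.55 (adjusted p = 0.00305), while CG2182, whose listed position overlaps the end of MED27, did not pass the test (0.14, adjusted p = 0.246). Whether the FPKM estimates told overlapping genes apart by strand was not stated.

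Of the other Mediator subunits, several were higher in RNAi. Of the 30 subunits tested, MED27 included, 12 were higher and 1, MED27, was lower, with a median log2 fold change of 0.25 beside 0.05 over all tested genes. Among all tested genes 19.6% were higher and 8.58% lower. MED11, MED10 and MED22, small subunits of the head and middle of the complex, rose by 0.63 (adjusted p = 0.00679), 0.63 (0.00256) and 0.60 (0.00545), and each passed with any 1 pupal replicate left out. MED22 did not pass once the trend with transcript length described below was removed (0.23, adjusted p = 0.0986). Without that trend 7 subunits were higher and 1 lower, and with quantile normalization 6 were higher and 1 lower. All tested genes had 13.8% higher and 12.8% lower without the trend. With quantile normalization 888 of the 7050 were higher and 786 lower. Without wild-type replicates 1 and 2 and RNAi replicates 1 and 2 in turn, 6, 5, 5 and 5 subunits were higher.

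The knockdown was accompanied by changes in many genes. Of the 7050 tested genes, 28.2% passed the test (1986 genes at a limma adjusted p under 0.05), with 1381 higher in RNAi (19.6% of those tested) and 605 lower (8.58%). Many changes were small: 918 of the 1986 had an absolute log2 fold change under 0.5, while 120 were higher and 105 lower by at least 1 log2 unit. Leaving out 1 replicate at a time gave between 723 genes, without RNAi replicate 2, and 1450 genes, without wild-type replicate 1, with 940 without wild-type replicate 2 and 943 without RNAi replicate 1. In all 1986 called genes the replicates of the 2 groups did not overlap, but the same holds for 71.2% of all tested genes, so a lack of overlap is no sign of a difference by itself. A total of 438 genes were called higher and 156 lower in all 4 of these fits.

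**Figure D1:**
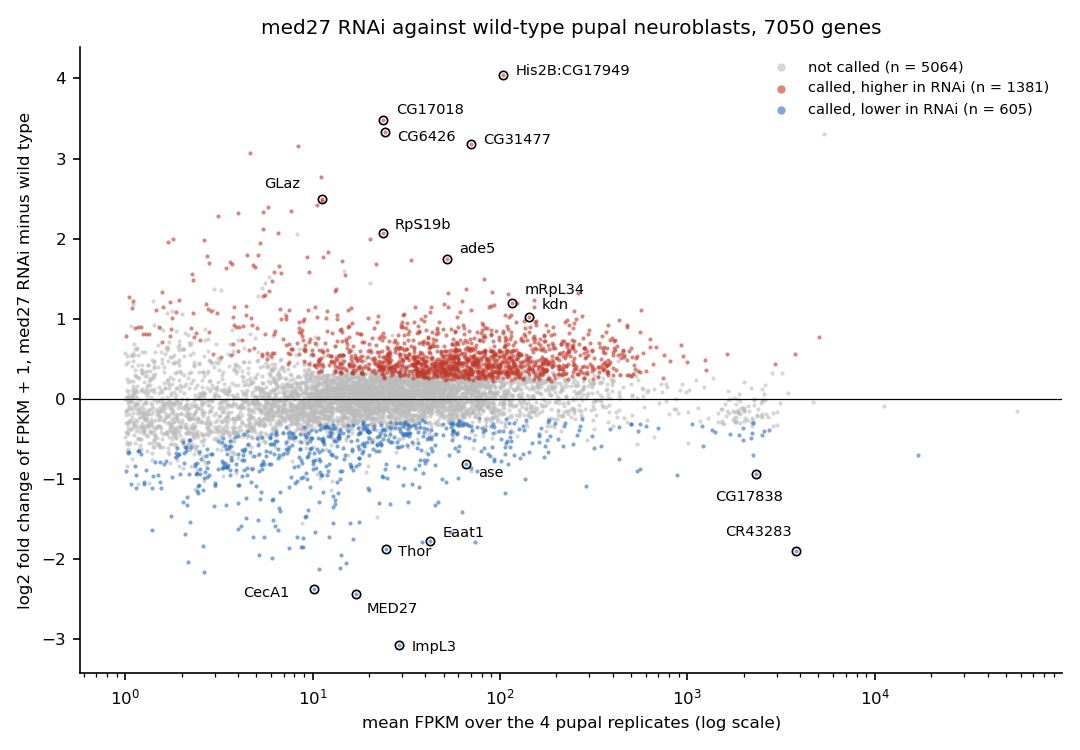
Log2 fold change of RNAi over wild-type (vertical axis, log2(FPKM + 1) scale) against the mean FPKM over the 4 pupal replicates (horizontal axis, log scale), 1 point per gene, coloured by whether it was called higher, lower or neither. Of the 7050 genes, 1381 are called higher and 605 lower (976 and 900 without the length trend), and some genes named in the text are labelled.

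The direction of the calls depended on transcript length and on scaling. Over 6711 genes with a transcript length in the Ensembl annotation, the median log2 fold change was 0.50 for the 139 genes of up to 500 nt, 0.30 for the 978 genes of 501 to 1000 nt and 0.10 for the 2321 genes of 1001 to 2000 nt. It was -0.01, -0.04 and -0.08 for the 1476, 1238 and 559 genes of 2001 to 3000, 3001 to 5000 and over 5000 nt. Each replicate had its own trend: expression relative to the mean of all replicates rose by 0.0901 and 0.19 log2 units per doubling of length in the wild-type replicates, and by 0.00151 and 0.0406 in the RNAi replicates. When the trend was removed from each replicate, 1876 genes were called, of which 976 were higher (13.8% of those tested) and 900 lower (12.8%), so that 52% of the calls were higher in place of 69.5%. With quantile normalization the split was 888 higher and 786 lower, and with equal medians 1075 higher and 785 lower. No gene was called in opposite directions between the values as deposited and any of these 3 scalings. Whether the length trend arose in the cells or in the libraries was not tested.

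**Figure D2:**
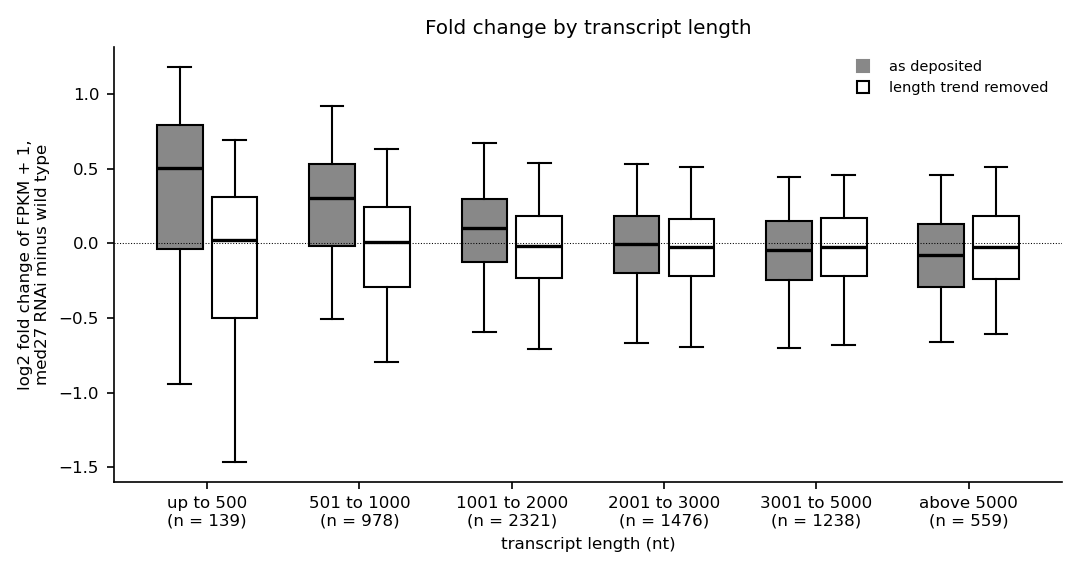
Log2 fold change of RNAi over wild-type (vertical axis, log2(FPKM + 1) scale) for 6 bins of transcript length in nt, as deposited and with the length trend removed; boxes span the quartiles and whiskers the 5th to 95th percentiles of the genes in a bin. As deposited, the median falls from 0.50 in the shortest bin to -0.08 in the longest, and after removal the 6 medians lie between -0.03 and 0.02.

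Among the genes that fell the most were a lactate enzyme, an antimicrobial peptide and a long non-coding RNA of neuroblasts. CecA1 (FBgn0000276, chromosome 3R, positions 26036596 to 26037009), an antimicrobial peptide of the cecropin family, read 15.7 and 19.3 FPKM in wild-type and 4.14 and 1.48 FPKM in RNAi replicates (-2.37 ± 0.30 (SE), limma adjusted p = 0.00253). CG10424 (FBgn0036848, chromosome 3L, positions 19089499 to 19090809), now named Naxd and coding for an enzyme that repairs hydrated NAD(P)H, read 28.2 and 21.4 FPKM and 5.48 and 4.89 FPKM (-2.05 ± 0.14 (SE), adjusted p = 0.000522). CG17680 (FBgn0062440, chromosome 2R, positions 14034802 to 14035499), now EMRE, a regulator of the mitochondrial calcium uniporter, read 21.9 and 24.1 FPKM and 6.16 and 4.38 FPKM (-1.95 ± 0.14 (SE), adjusted p = 0.000644). These 3 passed with any 1 pupal replicate left out, as did CG7054 (28.1 and 18.8 FPKM in wild-type, 5.94 and 3.45 FPKM in RNAi, -2.11, adjusted p = 0.00205) and CG5783 (6.16 and 11.49 FPKM in wild-type, 2.17 and 0.901 FPKM in RNAi, -1.94, adjusted p = 0.00589).

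Thor (FBgn0261560, chromosome 2L, positions 3478434 to 3479612), the 4E-BP protein that restrains cap-dependent translation and a known target of the transcription factor Foxo, read 48.0 and 30.6 FPKM in wild-type and 11.48 and 8.19 FPKM in RNAi replicates, beside 15.9 and 24.3 FPKM in the larval ones. Its log2 fold change was -1.88 ± 0.27 (SE) (limma adjusted p = 0.0035), and it passed with any 1 pupal replicate left out. CR43283 (FBgn0262972, chromosome 3R, positions 7073825 to 7081845), the long non-coding RNA cherub, which is found at the cortex of neuroblasts, was abundant, at 5754 and 6214 FPKM in wild-type and 1278 and 2012 FPKM in RNAi replicates. Its log2 fold change was -1.90 ± 0.36 (SE) (adjusted p = 0.00883), with an adjusted p of 0.0514 without wild-type replicate 2.

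ImpL3 (FBgn0001258, chromosome 3L, positions 6252592 to 6255793), now Ldh, the enzyme that converts pyruvate to lactate, had the most negative fold change of the called genes with groups that did not overlap, with a wide spread. It read 102 and 8.23 FPKM in wild-type replicates, 2.21 and 3.21 FPKM in RNAi replicates and 10.9 and 18.6 FPKM in larval replicates, so wild-type replicate 1 stood far above all the others. The log2 fold change was -3.07 ± 0.94 (SE) (limma adjusted p = 0.0479). Without wild-type replicate 1 it was -1.33 (adjusted p = 0.0334), and without wild-type replicate 2 it was -4.81 (adjusted p = 0.00474). The call was lost without either RNAi replicate (adjusted p = 0.146 without RNAi replicate 1 and 0.123 without RNAi replicate 2). It was also lost with quantile normalization (0.0719), in a fit of the 2 pupal groups alone (0.0743), with a replicate block (0.0626), without the intensity trend (0.0833), with a pseudocount of 5 (0.0769) and without a filter on low values (0.166). Eig71Ef and Eig71Eg, ecdysone-induced genes of the 71E puff, were likewise highest in wild-type replicate 1. Eig71Ef read 17.5 and 3.90 FPKM in wild-type and 1.09 and 1.76 FPKM in RNAi replicates (-1.99, adjusted p = 0.0324). Eig71Eg read 20.5 and 5.24 FPKM and 1.803 and 2.62 FPKM (-1.86, adjusted p = 0.0318). Both were listed at 0 in the larval replicates, and their adjusted p values were 0.121 without RNAi replicate 1 and 0.0841 without RNAi replicate 2 for Eig71Ef and 0.12 without RNAi replicate 1 and 0.0835 without RNAi replicate 2 for Eig71Eg. With quantile normalization, the 2 pupal groups alone or no intensity trend, both genes just missed the threshold (adjusted p of 0.0503, 0.0535 and 0.0545 for Eig71Ef and 0.0522, 0.0524 and 0.0536 for Eig71Eg), as did Eig71Ef with a pseudocount of 5 (0.0549).

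Among the genes that rose the most, CG17018 (FBgn0039972, chromosome 2L, positions 22311931 to 22368796), now Marf1, an RNA-binding protein of oocyte meiosis, read 4.47 and 1.92 FPKM in wild-type and 34.7 and 54.4 FPKM in RNAi replicates (3.48 ± 0.31 (SE), limma adjusted p = 0.000963). CG32364 (FBgn0052364), now tut, a translational repressor in the male germline, read 2.30 and 1.91 FPKM and 18.9 and 21.3 FPKM (2.76, adjusted p = 0.000548). The gene del (FBgn0086251), whose product Deadlock acts at piRNA clusters of the ovary, read 3.17 and 2.04 FPKM and 15.04 and 21.8 FPKM (2.43, adjusted p = 0.00149). Each was low in both wild-type replicates and higher in both RNAi replicates, but groups without overlap were a condition for picking these genes. With 1 pupal replicate left out at a time, the log2 fold change was 3.02 to 3.93 for CG17018, 2.67 to 2.85 for CG32364 and 2.17 to 2.68 for del. Of the 8 tested genes of a germline and piRNA list, 2 were higher and 0 lower (median 0.51), near the 19.6% higher over all tested genes, and 0 were called in all 4 fits that left out 1 replicate. With wild-type replicate 1, wild-type replicate 2, RNAi replicate 1 and RNAi replicate 2 left out in turn, 1, 1, 4 and 0 were higher. RNAi replicate 2 stood above the other pupal replicates in some germline genes, given here with their values seen. Of these, bam, which drives germ cells to differentiate, read 2.46 and 1.78 FPKM and 3.68 and 14.4 FPKM (1.45, adjusted p = 0.0598). The helicase gene vas read 7.65 and 5.40 FPKM and 7.10 and 15.6 FPKM (0.64, adjusted p = 0.178), and krimp, a piRNA factor, 6.69 and 8.29 FPKM and 8.16 and 19.2 FPKM (0.69, adjusted p = 0.153). The part of that replicate in the genes above was not tested beyond leaving it out.

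His2B:CG17949 (FBgn0061209, chromosome 2L, positions 21423125 to 21423745), a histone H2B gene, had the highest fold change of the genes named here. It rose from 11.2 and 10.2 FPKM to 145 and 249.5 FPKM (4.04 ± 0.26 (SE), limma adjusted p = 0.000522). Histone genes are near-identical copies, so which copy gave the reads is uncertain. Polyadenylated RNA was measured, so these values do not cover histone RNA without a poly(A) tail. CG31477 (FBgn0051477, chromosome 3R, positions 5947523 to 5948042), now ATPsynepsilonL, a paralogue of an ATP synthase subunit, rose from 19.7 and 8.13 FPKM to 104 and 148 FPKM (3.18 ± 0.35 (SE), adjusted p = 0.00157). GLaz (FBgn0033799, chromosome 2R, positions 9051559 to 9055535), a secreted lipocalin, rose from 2.95 and 2.29 FPKM to 15.1 and 24.8 FPKM (2.50 ± 0.24 (SE), adjusted p = 0.00114). CG6426 (FBgn0034162) rose from 4.61 and 2.73 FPKM to 40.5 and 49.5 FPKM (3.32, adjusted p = 0.000522).

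CG41503, listed on the Y chromosome (YHet), rose from 1.304 and 0.335 FPKM to 9.41 and 22.5 FPKM (3.16, limma adjusted p = 0.00231). CG17778 rose by 2.39 (adjusted p = 0.000899) and CG15343 by 2.35 (adjusted p = 0.000522). CG43182 was listed at 0 in both larval replicates and read 0.113 and 0.223 FPKM in wild-type and 6.36 and 11.9 FPKM in RNAi pupae (3.06, adjusted p = 0.00108). The deposited confidence bounds imply only 1 and 2 fragments behind its wild-type values. CG43182 and CG41503, with wild-type means of 0.168 and 0.819 FPKM, passed the filter of 1 FPKM only through the RNAi group. Their calls are therefore not independent of that choice. Rcd-1r, a paralogue of a CCR4-NOT deadenylase subunit, read 2.07 and 2.09 FPKM and 7.39 and 33.6 FPKM (2.47, adjusted p = 0.0164), with RNAi replicate 2 well above replicate 1 and adjusted p values of 0.0577 without wild-type replicate 1 and 0.072 without wild-type replicate 2. With 1 pupal replicate left out at a time, the log2 fold change was 2.57 to 3.75 for CG41503 and 2.66 to 3.47 for CG43182. It was 2.30 to 2.49 for CG17778 and 2.17 to 2.52 for CG15343.

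**Figure D3:**
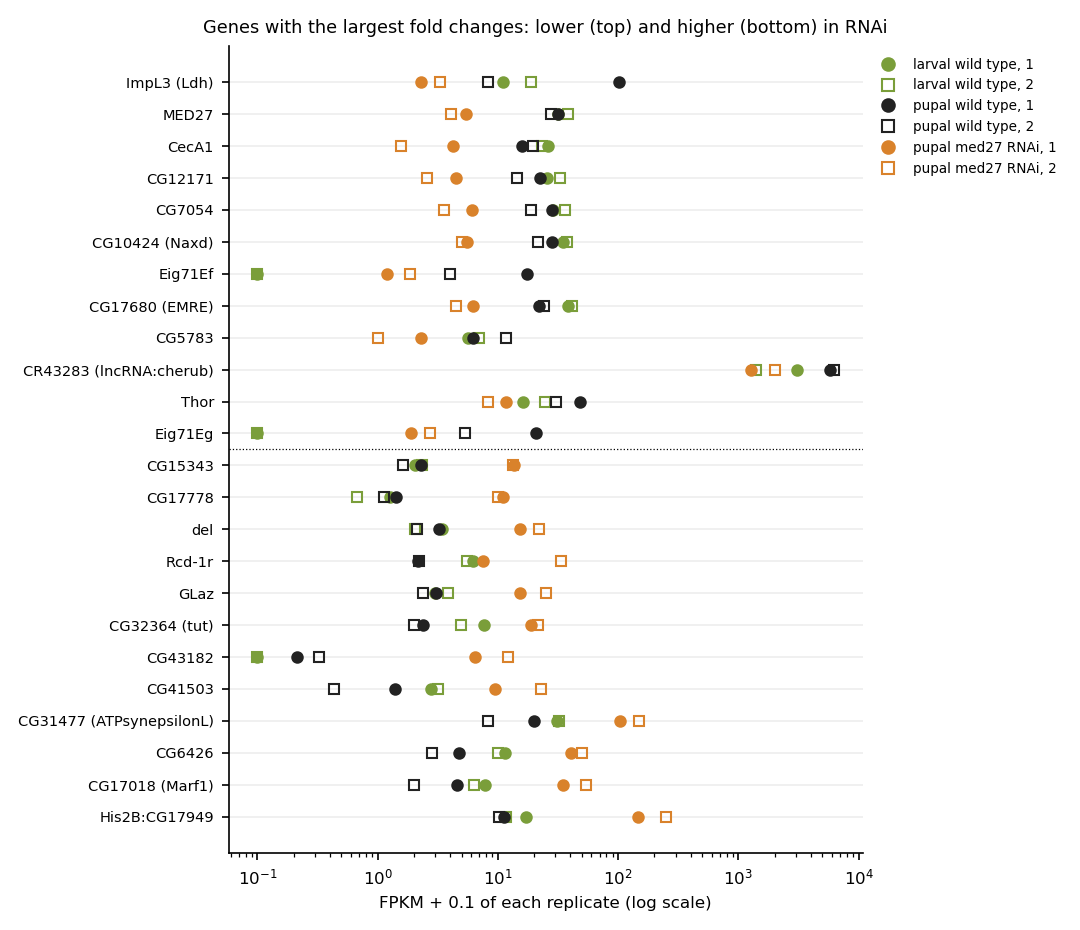
FPKM (log axis, FPKM + 0.1) of the 24 genes with the largest changes in each replicate of larval wild-type, pupal wild-type and pupal RNAi neuroblasts, 1 point per replicate. ImpL3 and both Eig71E genes show a wide gap between the wild-type replicates, and the 24 genes were chosen among those whose pupal groups do not overlap.

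As deposited, most genes of oxidative phosphorylation were higher in RNAi pupae in each of the 5 complexes. Once the length trend was removed, 0 subunits of complexes II and IV passed. Of 33 tested complex I subunits, which pass electrons from NADH, 28 were higher and 0 lower, with a median log2 fold change of 0.51 beside 0.05 over all genes. The shares over all tested genes were 19.6% higher and 8.58% lower. Of the 978 genes of 501 to 1000 nt, 427 were higher and 50 lower. Summed complex I expression was 5109 and 5198 FPKM in wild-type and 7409 and 7183 FPKM in RNAi pupae, beside 7224 and 7829 FPKM in larvae. Among these, CG12859 (ND-B15) rose from 136 and 133 FPKM to 245 and 255 FPKM (0.89 ± 0.10 (SE), limma adjusted p = 0.00161) and CG9140 (ND-51), which binds NADH, from 80.2 and 79.5 FPKM to 131 and 133 FPKM (0.72 ± 0.08 (SE), adjusted p = 0.00151). Both passed with any 1 pupal replicate left out. The most abundant subunit, CG32230 (ND-MLRQ), rose from 794 and 756 FPKM to 1193 and 1056 FPKM (0.54, adjusted p = 0.0072), but had an adjusted p of 0.0519 without RNAi replicate 1 and of 0.638 once the length trend was removed (0.07). The median transcript length of the complex I subunits was 725 nt. Without the length trend 11 were higher and 1 lower, with a median of 0.16. Without wild-type replicates 1 and 2 and RNAi replicates 1 and 2 in turn, 20, 20, 15 and 17 subunits were higher, and 15 were higher in all 4 fits.

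Complexes II to V showed the same direction in the values as deposited. Succinate dehydrogenase, complex II, had 3 of 4 subunits higher (median 0.37), complex III with cytochrome c 9 of 10 (median 0.59), cytochrome c oxidase, complex IV, 8 of 9 (median 0.50) and ATP synthase, complex V, 12 of 13 (median 0.53), with 0 lower in each. These counts, too, stand beside 19.6% higher and 8.58% lower over all tested genes, and beside 427 higher of the 978 genes of 501 to 1000 nt. ATPsyn-Cf6, a stalk subunit of ATP synthase, rose from 319 and 342 FPKM to 612 and 640.5 FPKM (0.92 ± 0.09 (SE), limma adjusted p = 0.00108), and CG1746 (ATPsynC), the rotor subunit, from 1292 and 1348 FPKM to 1907 and 1997 FPKM (0.56 ± 0.08 (SE), adjusted p = 0.00411). CoVIII (COX8) rose from 390.3 and 397 FPKM to 619.5 and 599.7 FPKM (0.63, adjusted p = 0.00182). All 3 passed with any 1 pupal replicate left out, but CoVIII did not pass without the length trend (0.18, adjusted p = 0.146). With that trend removed 8 subunits of complex V were higher and 1 lower, 5 of complex III were higher, and 0 of complexes II and IV passed. With quantile normalization the counts were 17 higher and 1 lower for complex I, and, for complexes II to V in turn, 0 and 1, 7 and 0, 3 and 0, and 9 and 1. Without RNAi replicate 1, the counts of higher subunits for complexes II to V were 1, 7, 5 and 7, without RNAi replicate 2 they were 1, 9, 4 and 8, without wild-type replicate 1 they were 1, 8, 4 and 9, and without wild-type replicate 2 they were 2, 8, 4 and 11. For complex II, SdhC, the subunit with the largest change (201 and 239 FPKM in wild-type, 353 and 328 FPKM in RNAi, 0.63, adjusted p = 0.0149), had an adjusted p of 0.0699 without wild-type replicate 1, 0.0754 without RNAi replicate 1 and 0.054 without RNAi replicate 2. It also missed the threshold with quantile normalization (0.37, adjusted p = 0.0699) and without the length trend (0.34, adjusted p = 0.0885).

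Pyruvate dehydrogenase and the tricarboxylic acid cycle, which feed complexes I and II, were mixed. Over all tested genes 19.6% were higher and 8.58% lower, or 13.8% and 12.8% without the length trend. Of 17 tested genes of this list 7 were higher and 5 lower (median 0.20), 8 and 5 without the length trend and 5 and 5 with quantile normalization. With wild-type replicate 1, wild-type replicate 2, RNAi replicate 1 and RNAi replicate 2 left out in turn, 6, 6, 5 and 5 were higher and 2, 0, 1 and 0 lower. The gene kdn, citrate synthase, rose from 81.9 and 108 FPKM to 188 and 195 FPKM (1.02 ± 0.13 (SE), limma adjusted p = 0.00253), with a similar 1.01 without the trend. CG5261 (muc), the acetyltransferase subunit of pyruvate dehydrogenase, rose from 70.6 and 56.8 FPKM to 115.2 and 116 FPKM (0.86, adjusted p = 0.0023), and Sucb, a subunit of succinyl-CoA synthetase, by 0.72 (adjusted p = 0.00485). Mdh2, mitochondrial malate dehydrogenase, read 24.5 and 26.9 FPKM in wild-type and 16.98 and 15.6 FPKM in RNAi replicates (-0.63, adjusted p = 0.0169), but its adjusted p was 0.0931 without wild-type replicate 2, 0.0525 without RNAi replicate 1 and 0.0979 without RNAi replicate 2.

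Glycolysis showed no common direction: of 12 genes 3 were higher and 3 lower (median 0.07, or -0.19 with quantile normalization), and 0 kept their call in all 4 fits that left out 1 pupal replicate. The counts were 6 higher and 1 lower without wild-type replicate 1, but 0 and 5 without wild-type replicate 2, 0 and 1 without RNAi replicate 1 and 0 and 0 without RNAi replicate 2. Ald, aldolase, read 199.9 and 100.3 FPKM in wild-type and 73.2 and 52.4 FPKM in RNAi replicates (-1.18, limma adjusted p = 0.0269), with adjusted p values of 0.0663 without wild-type replicate 1 and 0.135 without RNAi replicate 2, and of 0.0531 without the intensity trend. Pgk, phosphoglycerate kinase, read 85.4 and 53.4 FPKM and 123 and 122 FPKM (0.85, adjusted p = 0.0213), with 0.0573 without wild-type replicate 2, 0.0785 without RNAi replicate 1 and 0.083 without RNAi replicate 2, and with 0.0549 under quantile normalization. In Ald, as in ImpL3, wild-type replicate 1 stood above replicate 2. In the pentose phosphate pathway, Tal, transaldolase, rose from 161 and 142 FPKM to 299 and 288 FPKM (0.96 ± 0.10 (SE), adjusted p = 0.0013), among 7 genes of which 2 were higher and 1 lower. The median of these 7 was -0.20. Of 8 genes of fatty acid oxidation and lipolysis 2 were higher and 0 lower, among them CG4389 (Mtpalpha), the trifunctional protein of mitochondrial beta oxidation (0.54, adjusted p = 0.00556). The counts of these 3 lists stand beside 19.6% higher and 8.58% lower over all tested genes.

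**Figure D4:**
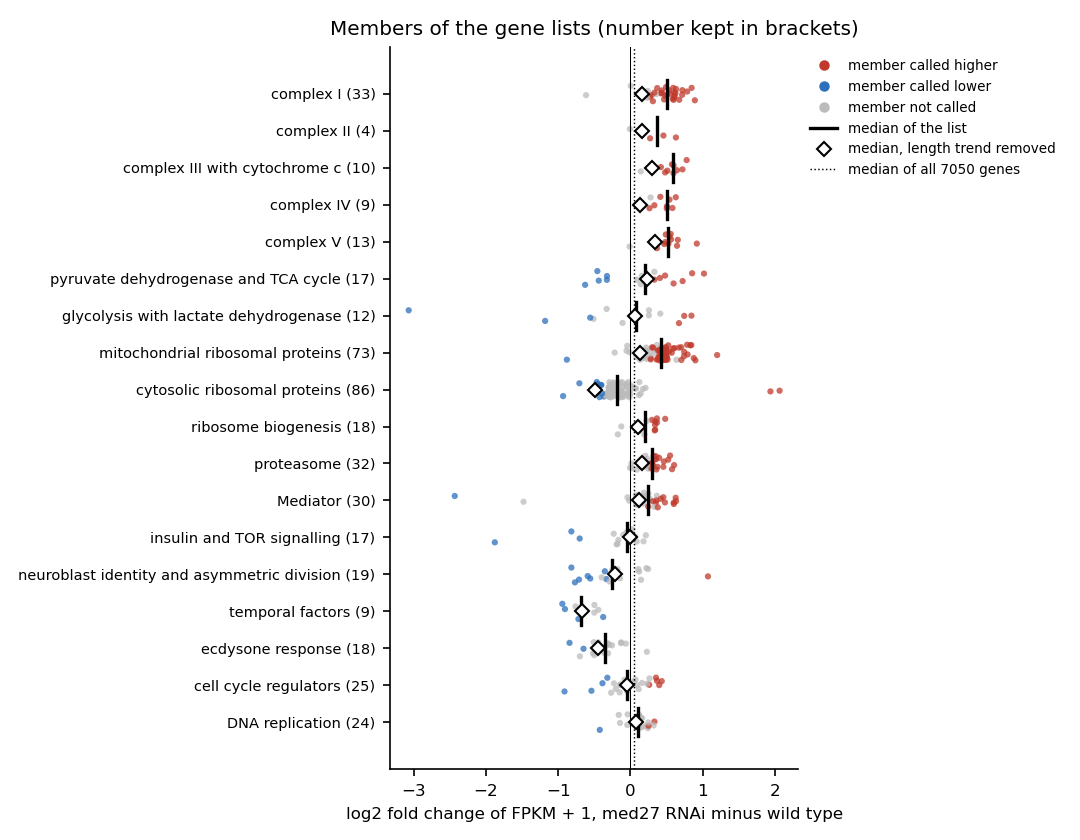
Log2 fold change of RNAi over wild-type (horizontal axis, log2(FPKM + 1) scale) of the members of 18 gene lists, 1 point per gene, coloured by call, with a bar at the list's median, a diamond at its median without the length trend and a dotted line at the median of all tested genes. The complex I median is 0.51, or 0.16 without the trend, and the cytosolic ribosomal protein median is -0.19, or -0.49 without it and -0.04 with quantile normalization.

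Of 73 mitochondrial ribosomal proteins 51 were higher and 1 lower (median 0.43), against 2 higher and 13 lower of 86 cytosolic ones (median -0.19). Both sets code for short transcripts, with median lengths of 740 and 708 nt. Of the 978 tested genes of 501 to 1000 nt, 427 were higher and 50 lower. The shares over all tested genes were 19.6% higher and 8.58% lower, or 13.8% and 12.8% without the length trend. Without the length trend the mitochondrial set had 19 higher and 2 lower (median 0.14), and the cytosolic set 2 higher and 72 lower (median -0.49). With quantile normalization the counts were 29 and 2 for the mitochondrial set (median 0.25) and 6 and 18 for the cytosolic set (median -0.04, beside -0.0042 over all genes). Without wild-type replicates 1 and 2 and RNAi replicates 1 and 2 in turn, 41, 29, 25 and 30 mitochondrial ribosomal proteins were higher, and 2, 3, 8 and 2 cytosolic ones lower. In all 4 of these fits, 22 mitochondrial ones were higher and 1 lower, and 2 cytosolic ones were higher and 2 lower.

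Among the mitochondrial ribosomal proteins, mRpL34 rose from 69.7 and 70.1 FPKM to 167 and 158 FPKM (1.20 ± 0.08 (SE), limma adjusted p = 0.000522). The 1 that fell, mRpS5, read 44.0 and 47.4 FPKM in wild-type and 26.5 and 22.4 FPKM in RNAi replicates (-0.88 ± 0.12 (SE), adjusted p = 0.00337). Among the cytosolic ones, RpS3A fell from 2905 and 2677 FPKM to 1810 and 1613 FPKM (-0.71 ± 0.10 (SE), adjusted p = 0.00372). RpS19b and RpS10a, paralogues used mainly in the germline, rose: RpS19b read 7.37 and 9.38 FPKM and 30.9 and 46.8 FPKM (2.07, adjusted p = 0.00157), and RpS10a 1.22 and 1.96 FPKM and 9.003 and 8.68 FPKM (1.94, adjusted p = 0.00175). RpS5b, another such paralogue, had a log2 fold change of -0.93 (adjusted p = 0.0069). Copies of these genes can share reads, so the split between paralogues is uncertain. The most abundant, RpL41, read 13010 and 10050 FPKM and 11460 and 10000 FPKM and did not pass as deposited (-0.09, adjusted p = 0.698) but did without the length trend (-0.66, adjusted p = 0.00825).

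The proteasome, which degrades ubiquitin-tagged proteins, had 18 of 32 subunits higher and 0 lower (median 0.30), or 9 higher and 1 lower without the length trend and 6 higher and 2 lower with quantile normalization. The list counts in this paragraph stand beside 19.6% higher and 8.58% lower over all tested genes. Those shares were 13.8% and 12.8% without the length trend, and with quantile normalization 888 of 7050 genes were higher and 786 lower. Prosbeta3, a core subunit, rose from 338 and 317 FPKM to 511 and 487 FPKM (0.61 ± 0.08 (SE), limma adjusted p = 0.00231) and passed with any 1 pupal replicate left out, one of 4 subunits that did. With wild-type replicate 1, wild-type replicate 2, RNAi replicate 1 and RNAi replicate 2 left out in turn, 9, 6, 5 and 6 subunits were higher. Of 18 ribosome biogenesis genes 8 were higher and 0 lower, but with quantile normalization 0 were higher and 2 lower, and without the same replicates in turn 5, 0, 1 and 0 were higher.

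In insulin and TOR signalling, which couples nutrition to growth, 0 of 17 genes were higher and 3 were lower, Thor among them. This compares with 19.6% higher and 8.58% lower over all tested genes. The transcription factor foxo read 12.3 and 14.01 FPKM in wild-type and 6.54 and 7.54 FPKM in RNAi replicates (-0.82 ± 0.14 (SE), limma adjusted p = 0.00679), and Pdk1, a kinase upstream of Akt, 148 and 147 FPKM and 88.2 and 92.9 FPKM (-0.70 ± 0.11 (SE), adjusted p = 0.00478). These 3 passed with any 1 pupal replicate left out.

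Several neuroblast factors were lower. Across all tested genes 19.6% were higher and 8.58% lower, or 888 and 786 of 7050 with quantile normalization. Of 19 genes of neuroblast identity and asymmetric division 1 was higher and 7 lower (median -0.25), or 1 and 12 with quantile normalization. Without wild-type replicates 1 and 2 and RNAi replicates 1 and 2 in turn, 5, 3, 3 and 3 were lower. The proneural factor ase read 82.1 and 85.8 FPKM in wild-type and 47.2 and 47.2 FPKM in RNAi replicates (-0.82 ± 0.10 (SE), limma adjusted p = 0.00225), and cnn, a centrosome protein, 52.3 and 47.5 FPKM and 28.1 and 29.6 FPKM (-0.77 ± 0.08 (SE), adjusted p = 0.00157). In both genes the 2 replicates of each group lay close together. The other neuroblast transcription factors dpn (176 and 166 FPKM in wild-type, 180.5 and 191 FPKM in RNAi, 0.12, adjusted p = 0.302) and wor (0.22, adjusted p = 0.126), and the adaptor mira (955 and 931 FPKM, 874 and 793 FPKM, -0.18, adjusted p = 0.151), did not pass. The differentiation factor pros, named like wor with its values seen, was lower (109 and 148 FPKM, 83.0 and 89.4 FPKM, -0.56, adjusted p = 0.0267), with adjusted p values of 0.1 without wild-type replicate 2, 0.118 without RNAi replicate 1 and 0.0836 without RNAi replicate 2, and of 0.0533 without the intensity trend. SoxN, a Sox factor of neural progenitors, was lower too (-0.71, adjusted p = 0.0121), with adjusted p values of 0.0733 without wild-type replicate 2, 0.0591 without RNAi replicate 1 and 0.0525 without RNAi replicate 2, and l(1)sc was higher from a low level (1.38 and 0.874 FPKM, 3.12 and 3.81 FPKM, 1.07, adjusted p = 0.00876), with 0.0783 without RNAi replicate 2.

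Temporal factors, which set the identity of neurons born over time, were lower or did not pass: of 9 tested, 0 were higher and 4 lower (median -0.68), with 4, 0, 0 and 2 lower without wild-type replicates 1 and 2 and RNAi replicates 1 and 2 in turn. Beside these counts, 19.6% of all tested genes were higher and 8.58% lower. CG17838 (Syp), an RNA-binding protein of late neuroblasts, read 2923 and 3216 FPKM in wild-type and 1488 and 1710 FPKM in RNAi replicates, beside 1695 and 998 FPKM in larvae (-0.94 ± 0.23 (SE), limma adjusted p = 0.0212). Its adjusted p was 0.0571 without wild-type replicate 1, 0.101 without wild-type replicate 2, 0.0928 without RNAi replicate 1 and 0.0603 without RNAi replicate 2. Chinmo, a factor of early-born neurons (chinmo, 16.0 and 21.1 FPKM and 8.79 and 9.96 FPKM, -0.91, adjusted p = 0.00973), had 0.0587 without wild-type replicate 2 and 0.0548 without RNAi replicate 1. D (Dichaete; 14.9 and 18.7 FPKM, 9.55 and 9.95 FPKM, -0.72, adjusted p = 0.0126) had 0.0751 without wild-type replicate 2, 0.063 without RNAi replicate 1 and 0.0604 without RNAi replicate 2, and svp, an orphan nuclear receptor (45.3 and 47.3 FPKM, 34.5 and 36.3 FPKM, -0.38, adjusted p = 0.0233), had 0.0649 without wild-type replicate 1, 0.117 without wild-type replicate 2, 0.134 without RNAi replicate 1 and 0.0973 without RNAi replicate 2.

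**Figure D5:**
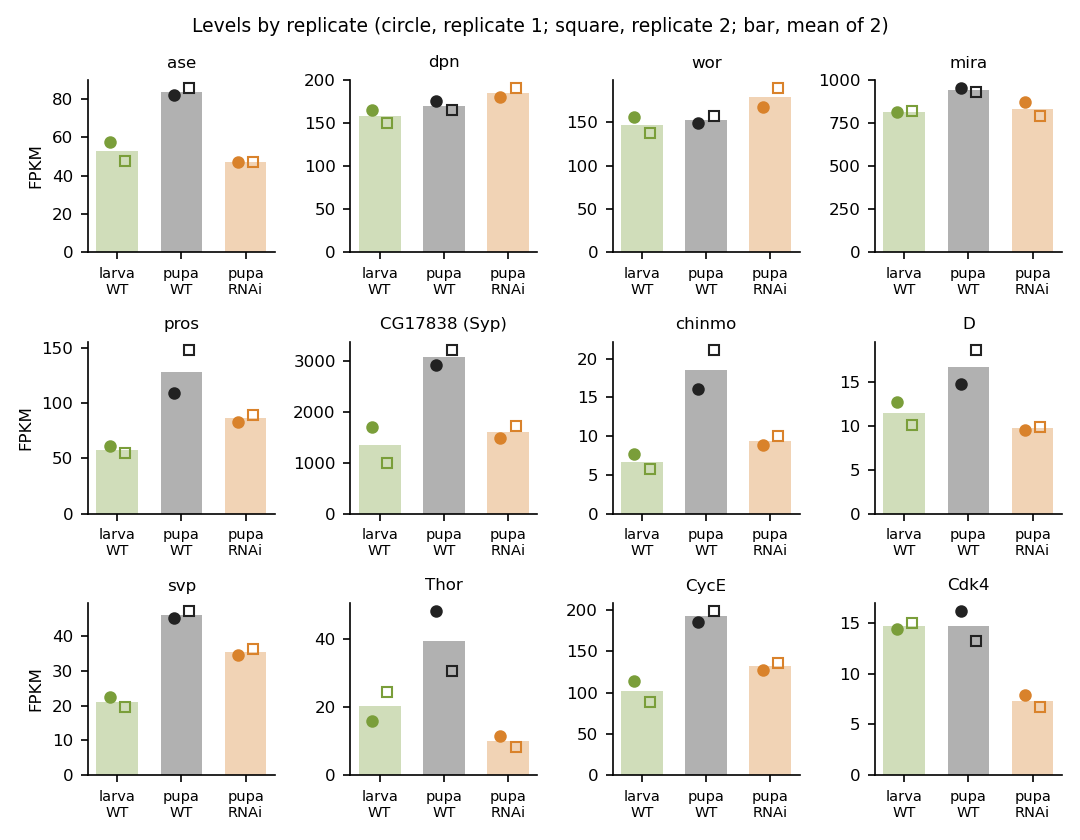
FPKM (vertical axes starting at 0) of 12 neuroblast, temporal and growth genes in larval wild-type, pupal wild-type and pupal RNAi neuroblasts, with bars for the mean and points for the 2 replicates. Ase, mira, pros, CG17838, chinmo, D, svp, Thor, CycE and Cdk4 sit lower in both RNAi replicates than in both wild-type pupal replicates. Such a lack of overlap between the groups, in either direction, holds for 71.2% of all tested genes. Dpn, wor and mira did not pass the test.

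In the Notch pathway 4 of 15 genes were higher and 2 lower, beside 19.6% and 8.58% over all tested genes. Under each of the 3 other scalings, 3 were higher and 3 lower. With wild-type replicate 1, wild-type replicate 2, RNAi replicate 1 and RNAi replicate 2 left out in turn, 3, 3, 2 and 2 were higher and 1, 1, 0 and 0 lower. HLHmdelta, a gene of the E(spl) complex that codes for a Notch-induced repressor, read 1.67 and 2.00 FPKM in wild-type and 6.60 and 9.37 FPKM in RNAi replicates (1.65 ± 0.20 (SE), limma adjusted p = 0.00229), and HLHmbeta rose by 0.78 (adjusted p = 0.00598). Both passed with any 1 pupal replicate left out. HLHmgamma was lower instead (-0.40, adjusted p = 0.00876), with 0.0524 without wild-type replicate 2, 0.0593 without RNAi replicate 1 and 0.0698 without RNAi replicate 2.

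Of 25 cell cycle regulators 5 were higher and 4 lower, beside 19.6% and 8.58% over all tested genes, and 0 were higher and 8 lower with quantile normalization. Without wild-type replicates 1 and 2 and RNAi replicates 1 and 2 in turn, 3, 0, 0 and 1 were higher and 3, 1, 1 and 1 lower. Cdk4, partner of Cyclin D in G1, fell from 16.2 and 13.2 FPKM to 7.93 and 6.70 FPKM (-0.91 ± 0.13 (SE), limma adjusted p = 0.0036) and was the 1 regulator called in all 4 fits that left out 1 pupal replicate. CycE, which drives S phase entry, read 186 and 199 FPKM and 128 and 136 FPKM (-0.54, adjusted p = 0.0164), with adjusted p values of 0.0878 without wild-type replicate 2, 0.0866 without RNAi replicate 1 and 0.0622 without RNAi replicate 2. Of 24 DNA replication genes 2 were higher and 1 lower, or 0 and 4 with quantile normalization, and 0 were higher without wild-type replicate 2, RNAi replicate 1 or RNAi replicate 2.

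Of 18 tested genes of a list of 23 ecdysone response genes, 0 were higher and 2 lower (median -0.35), a share of lower genes near the 8.58% over all tested genes. The list does not hold Eig71Ef and Eig71Eg. The count of lower genes was 4 without the length trend and 6 with equal medians, and 1 without wild-type replicate 2 or RNAi replicate 2. ImpL2, a secreted binder of insulin-like peptides, fell from 10.1 and 11.8 FPKM to 5.01 and 6.39 FPKM (-0.84 ± 0.15 (SE), limma adjusted p = 0.00717), passing with any 1 pupal replicate left out. The nuclear receptor ftz-f1 was lower (-0.65, adjusted p = 0.0305), with adjusted p values of 0.1 without wild-type replicate 1, 0.107 without wild-type replicate 2, 0.121 without RNAi replicate 1 and 0.105 without RNAi replicate 2. The receptor EcR itself, named with its values seen (5.07 and 6.00 FPKM in wild-type, 4.56 and 5.38 FPKM in RNAi, -0.13, adjusted p = 0.532) did not pass.

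Among stress and immune genes, the antimicrobial peptide CecA2 read 5.06 and 4.22 FPKM in wild-type and 0.538 and 0.614 FPKM in RNAi replicates (-1.84 ± 0.19 (SE), limma adjusted p = 0.0013); 5 of 18 immune genes were tested, 1 higher and 3 lower. CecA1 and CecA2 are similar copies, so the split between them is uncertain. Of 21 heat shock and stress genes 3 were higher and 3 lower, or 1 and 9 without wild-type replicate 2 and 1 and 3 without RNAi replicate 2. Hsp68, an inducible chaperone, fell from 477 and 308 FPKM to 174 and 185 FPKM (-1.09 ± 0.18 (SE), adjusted p = 0.00605), with wild-type replicate 1 above replicate 2, and GstD1, a detoxifying glutathione transferase, rose from 33.3 and 21.4 FPKM to 53.02 and 62.6 FPKM (1.08 ± 0.19 (SE), adjusted p = 0.0072). Hsp70Ba fell too (-1.10, adjusted p = 0.000798), but the Hsp70 genes are near-identical copies. CecA2, Hsp68, GstD1 and Hsp70Ba passed with any 1 pupal replicate left out. The list counts in this paragraph stand beside 19.6% higher and 8.58% lower over all tested genes. Of 9 apoptosis genes 2 were higher and 0 lower, of 8 small RNA silencing genes 2 and 0 and of 15 autophagy genes 2 and 0. Of 10 SWI/SNF subunits 1 was higher and 0 lower (0 and 3 with quantile normalization), of 11 Polycomb genes 0 and 0 and of 4 Hox genes 0 and 1. Of 8 mitochondrial biogenesis regulators 1 was higher and 1 lower. Without RNAi replicate 2, these 7 counts came to 0 higher in all but the small RNA silencing genes and the mitochondrial biogenesis regulators, with 1 each, and to 0 lower in all 7.

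Eaat1, a glutamate transporter used as a glial marker, fell from 61.1 and 71.5 FPKM to 18.6 and 18.7 FPKM (-1.77 ± 0.12 (SE), limma adjusted p = 0.000522), passing with any 1 pupal replicate left out. Of the other glial markers tested, nrv2, a sodium pump subunit, read 121 and 114 FPKM and 131 and 129 FPKM and did not pass (0.15, adjusted p = 0.298). The gene w, carried as a marker by many fly transgenes, rose from 327 and 258 FPKM to 546 and 604 FPKM (0.98 ± 0.12 (SE), adjusted p = 0.00229), and the 2 groups carried different transgene insertions.

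The authors' deposited table lists 1597 genes that differed between RNAi and wild-type pupae, 813 higher and 784 lower in RNAi after turning its sign. Of the 1472 that were also tested here, 1197 passed the test above, all in the same direction, which is 75% of the authors' deposited table and 60.3% of the genes called here. Which runs entered the authors' deposited table is not stated, and the 2 analyses are not independent where they share libraries. For ImpL3 the authors' deposited table gives a log2 fold change of -4.45, where the ratio of the mean FPKM values used here was 20.4 (wild-type over RNAi). The -3.07 above is another quantity, a difference of means of log2(FPKM + 1). For MED27 the authors give a larger change, -3.63, with base means of 143.6 in RNAi and 1779 in wild-type pupae. The ratio of its mean FPKM values here was 6.31 (wild-type over RNAi), and its log2 fold change above -2.43. The size of the knockdown thus differed between the 2 analyses, and the reason was not tested.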

How the data were processed

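Polyadenylated RNA of sorted neuroblasts was sequenced in 10 runs. The authors deposited Cufflinks FPKM values per gene for each run. The authors' deposited DESeq table of this comparison holds base means (a normalized signal), log2 fold changes and adjusted p-values, and lists genes at an adjusted p under 0.01. Versions listed by the submitters' processing notes, with no settings, are DESeq 1.8.3, Cufflinks 1.3.0, TopHat 1.4.1 and BWA 0.6.1, beside HTSeq. No genome build is named in the labels, so positions are those of the files. FPKM is not a count and keeps no depth, so no count test was run.

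The 2 technical runs of a pupal replicate were averaged as FPKM. Genes with a mean of at least 1 FPKM over the 4 pupal replicates were tested with limma 3.58.1 in R 4.3.3 on log2(FPKM + 1), with an intensity trend, over all 3 groups (3 residual and 4.28 prior degrees of freedom), two-sided, Benjamini-Hochberg over 7050 genes, threshold 0.05. The pseudocount understates changes of low genes. Transcript lengths came from Ensembl annotation, matched for 6711 genes; the trend was a loess fit per replicate with span 0.5. Steps were tested on simulated data. Genes named are MED27 and its neighbours, the 12 largest changes each way with a mean of at least 5 FPKM and no overlap, and per list the 4 largest calls and the 2 most abundant members; the others are said to be chosen with values seen. The members and the 40 lists were chosen with earlier results of these data known. Alternatives were other scalings, pseudocounts, filters, fits and each replicate left out. The value as deposited was used where Cufflinks marked an estimate as failed (39 genes). Same-numbered pupal replicates deviated with a correlation of -0.034, so the numbers do not pair them.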

Additional observations from a re-analysis of the deposited data

How the results depend on the processing

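Called genes numbered 723 to 1450 (527 to 990 higher, 196 to 460 lower) with 1 pupal replicate left out, 833 (621 and 212) at an adjusted p of 0.01, and 1544 (1109 and 435) with a replicate block, although the replicate numbers showed no pairing in the data. Without a filter on low values 333 genes were lower, and with quantile normalization 888 were higher. The pseudocounts of 0.1 and 5 gave 1988 and 1955 calls, technical run 1 or 2 alone 1913 and 1977, the 2 pupal groups alone 2244, no intensity trend 1730 and a minimum of 5 FPKM 1846. Of the named genes called as deposited or without the length trend, 4 had opposite signs in these 2 fits. Their log2 fold changes without the trend were -0.11 (CG9603), -5.79e-06 (MED7, almost no change), -0.48 (RpL29) and -0.0354 (mRpL33). Some named genes called in neither fit, such as CG7911 (0.12 as deposited, -0.19 without the trend), changed sign too. The cause was not tested. Without a filter on low values, which tests more genes, 38 named genes lost their call. Among them, with limma adjusted p values from 0.0515 (MED7) to 0.166 (ImpL3), were Ald, CG17838, CG31548, CG9603, CR43283, CycE, D, Eig71Ef, Eig71Eg, ImpL3, MED7, Mdh2, Pgk, Rcd-1r, SdhC, SoxN, chinmo, ftz-f1, pros, roX2 and svp. MED27 was lower and called in all alternatives that were run. With 2 replicates per group and no read counts, small changes and low genes are the least certain.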

Other observations

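For 4 enzymes of de novo purine synthesis, picked with their values seen and not standing for the pathway, the values were as follows. The gene ade3 (Gart) fell from 62.9 and 55.9 FPKM in wild-type to 21.0 and 13.0 FPKM in RNAi replicates (-1.78, limma adjusted p = 0.00168), whereas ade5 (Paics) rose from 23.2 and 23.5 FPKM to 83.7 and 77.5 FPKM (1.74, adjusted p = 0.000522). Both passed with any 1 pupal replicate left out. CG11089, which completes inosine monophosphate, read 19.0 and 21.7 FPKM and 38.4 and 38.9 FPKM (0.89, adjusted p = 0.00188). The gene ade2 read 45.3 and 46.4 FPKM and 63.8 and 64.3 FPKM (0.47, adjusted p = 0.00665), with an adjusted p of 0.0545 without RNAi replicate 2.

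The split of the calls on the X chromosome and the autosomes is given here with results known and without a test. Of 1206 tested genes on X, 13.7% were higher and 12.4% lower, with a median log2 fold change of -0.04, and of 5742 genes on the 4 large autosomal arms 20.9% were higher and 7.7% lower, with a median of 0.07. Without the length trend the shares on X were 9.29% higher and 16.58% lower and on the autosomal arms 14.8% and 11.9%. The roX1 RNA, a part of the complex that raises X transcription in males, fell from 689 and 749 FPKM to 391 and 393 FPKM (-0.87 ± 0.11 (SE), limma adjusted p = 0.00274) and passed with any 1 pupal replicate left out. Its partner roX2 read 4.74 and 11.04 FPKM and 14.8 and 16.65 FPKM (1.01, adjusted p = 0.0467), with 0.0878 without wild-type replicate 1, 0.11 without RNAi replicate 1 and 0.176 without RNAi replicate 2. Its call was also lost without the length trend (0.65, adjusted p = 0.198), with quantile normalization (0.0617), with equal medians (0.0664), in a fit of the 2 pupal groups alone (0.0681), with a replicate block (0.0538), without the intensity trend (0.0763), from technical run 2 alone (0.0697) and without a filter on low values (0.157). The gene msl-2, which codes for a protein of the complex, read 20.8 and 20.5 FPKM and 26.8 and 27.2 FPKM (0.37, adjusted p = 0.0216), with 0.0705 without wild-type replicate 1, 0.101 without wild-type replicate 2, 0.107 without RNAi replicate 1 and 0.136 without RNAi replicate 2, and with 0.0507 under equal medians. CG41503, listed on the Y chromosome (YHet), was higher in RNAi by 3.16 log2 units. The sex of the sorted animals is not given in the labels, and whether the groups differed in it was not tested.

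The non-coding gene CR40469, also picked with its values seen, read 6917 and 75.3 FPKM in wild-type and 7471 and 6861 FPKM in RNAi replicates, so that wild-type replicate 2 stood apart from the other 3 pupal replicates (limma adjusted p = 0.191).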
